A study of Mus musculus with 8 samples.

Results

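The genes described here are 42 Wnt pathway genes of the mouse: 18 Wnt ligands, 10 Frizzled receptors, the 2 co-receptors Lrp5 and Lrp6, 6 secreted antagonists (Sfrp1, Sfrp2, Sfrp4, Dkk2, Dkk3 and Wif1), the 2 target genes Axin2 and Lef1, and 4 genes of the R-spondin axis (Lgr4, Lgr5, Rspo1 and Rspo3). They were chosen by name, with Wnt9a as the lead, after their counts over the 4 groups of tumors were known, so their own values are given as a description and without p-values of their own. Each of the 42 matched 1 of the 25006 gene identifiers counted. The tumors grew from 4T1, a mouse mammary carcinoma line of Balb/c origin that stands in for triple-negative breast cancer, injected into the mammary fat pad and left to grow for at most 20 days. The host was either NSG, an immunodeficient strain on another genetic background that lacks mature T, B and NK cells, or the immunocompetent Balb/c. The cells were wild type for CD95, the death receptor encoded by Fas, or carried a CRISPR/Cas9 knockout of it. Wild-type tumors came from the parental line and from a line that stably expresses vCas9, and knockout tumors from clones 54 and 69. Each of these 4 lines was sequenced from both hosts, 1 library each, which gives 8 libraries in 4 groups of 2. The libraries of a group are therefore different lines, the knockout lines are single clones (for the wild-type lines the labels do not say), and whether a library holds 1 tumor or several is not stated. Host strain and immune competence cannot be told apart in this design, nor can CD95 status and descent from a single cell.

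Wnt ligands are lipid-modified secreted proteins that bind Frizzled receptors together with the co-receptors LRP5 or LRP6, which stabilizes beta-catenin and switches on genes through the TCF and LEF transcription factors. Other ligands of the family, Wnt5a and Wnt11 among them, signal largely without beta-catenin. Secreted Frizzled-related proteins bind the ligands, Dickkopf proteins act on the co-receptors, and R-spondins acting through LGR receptors raise the amount of Frizzled at the cell surface. In the mammary gland the pathway supports stem and progenitor cells and duct growth, and mouse mammary tumors are among the places where it was discovered.

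Several members lie side by side in the genome, and in 3 of 4 such pairs the neighbours differed in their highest count. In the GRCm38 build Wnt9a (ENSMUSG00000000126; chr11:59306928-59333552, plus strand, protein-coding) and Wnt3a (chr11:59248033-59290752, minus strand) start 16.2 kb apart and run in opposite directions, with no other gene of the files between them. Wnt9a reached 303 counts and Wnt3a had 0 in all 8 libraries. Wnt10b and Wnt1, 11.7 kb apart on chromosome 15 and also divergent, reached 130 and 5 counts. On chromosome 1, 6.19 kb separates Wnt6 from Wnt10a, which reached 8 and 100 counts, and the chromosome 11 pair Wnt9b and Wnt3, 24.3 kb apart and divergent too, did not exceed 5 counts for either gene. The 250 bases before the RefSeq start sites (GRCm38.p6) of Wnt9a and Wnt3a and of Wnt10b and Wnt1 are printed because 1 gene of each pair was counted and its neighbour was at or near 0, and that of Wnt11 because it holds a match to the letters bound by TCF and LEF, in capitals:
Wnt9a, chr11:59306680-59306929, plus strand: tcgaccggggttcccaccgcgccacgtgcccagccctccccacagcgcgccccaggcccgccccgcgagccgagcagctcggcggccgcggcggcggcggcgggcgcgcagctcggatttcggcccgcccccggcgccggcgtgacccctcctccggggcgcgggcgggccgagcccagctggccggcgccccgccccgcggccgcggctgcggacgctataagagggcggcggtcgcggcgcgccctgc
Wnt3a, chr11:59290752-59291001, minus strand: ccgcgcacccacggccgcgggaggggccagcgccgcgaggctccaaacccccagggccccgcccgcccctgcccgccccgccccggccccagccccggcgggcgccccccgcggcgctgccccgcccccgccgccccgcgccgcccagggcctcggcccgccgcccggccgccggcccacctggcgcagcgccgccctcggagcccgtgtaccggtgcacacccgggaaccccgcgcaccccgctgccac
Wnt10b, chr15:98778151-98778400, minus strand: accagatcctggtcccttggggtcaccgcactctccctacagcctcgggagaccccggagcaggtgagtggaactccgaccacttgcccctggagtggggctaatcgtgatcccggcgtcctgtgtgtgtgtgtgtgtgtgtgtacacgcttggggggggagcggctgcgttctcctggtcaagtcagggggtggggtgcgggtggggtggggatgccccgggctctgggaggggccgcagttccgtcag
Wnt1, chr15:98789607-98789856, plus strand: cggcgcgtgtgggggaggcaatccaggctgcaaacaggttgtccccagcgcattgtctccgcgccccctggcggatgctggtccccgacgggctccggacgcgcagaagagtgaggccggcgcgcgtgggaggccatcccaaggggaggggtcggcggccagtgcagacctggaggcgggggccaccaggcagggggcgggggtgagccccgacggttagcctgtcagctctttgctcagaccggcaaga
Wnt11, chr7:98834862-98835111, plus strand: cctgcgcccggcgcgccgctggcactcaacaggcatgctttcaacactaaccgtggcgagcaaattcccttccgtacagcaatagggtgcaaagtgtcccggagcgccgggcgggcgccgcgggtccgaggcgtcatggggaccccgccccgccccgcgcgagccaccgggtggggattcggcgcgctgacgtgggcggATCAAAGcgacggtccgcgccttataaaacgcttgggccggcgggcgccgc
The Wnt9a window is 84.4% G and C with 48 CpG, and that of the uncounted Wnt3a is 87.6% with 41 CpG. For Wnt10b the values are 66.8% and 14 CpG, and for Wnt1 71.6% and 23 CpG. A promoter was listed for 28 of the 42 members, with 34 windows in all, whose median was 66.8% G and C and 21.5 CpG against 52.4% and 6 over all 32851 promoters. The letters CTTTGAT or CTTTGAA, searched on both strands without overlap between them, occurred in 2 of the 34 windows, those of Wnt5b and Wnt11, and in 7.48% of all promoters. A match is only a run of letters.

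Depth ran from 8680070 to 19655945 counts per library, with both NSG knockout libraries the shallowest. Levels below are CPM, counts scaled to library size after TMM normalization, and in each pair of values the parental line or clone 54 comes first and the vCas9 line or clone 69 second. The library labels could be checked on Fas only in part, since reads outside the edited part still count: Fas stood at 33.8 and 22.6 CPM in NSG wild-type tumors against 29.5 and 12.9 in NSG knockout tumors, and at 51.6 and 46.9 against 27.1 and 33.7 in Balb/c. The log2 fold change of Fas in knockout tumors was -0.42 (SE 0.37) in NSG and -0.70 (SE 0.36) in Balb/c, past the threshold in neither host, and host cells also carry Fas. The epithelial marker sum (8 genes) was between 758 and 4320 CPM in the tumors. T cell markers (8 genes) summed to between 3.85 and 10.4 CPM in NSG and 326 and 380 CPM in Balb/c. Because these are whole tumors, fewer cells of a type and less RNA per cell cannot be told apart.

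Wnt3a was the only member under 3 counts in every library. Another 7 had too few counts for the filter of the test, namely Wnt1, Wnt3, Wnt6, Wnt8b, Wnt9b, Fzd9 and Wif1, and all of these were under 3 counts in at least 1 library, as were Rspo1 and Rspo3, which passed the filter. The remaining 32 members had at least 3 counts in all 8 libraries. Just at that line, Wnt8b reached 3 counts in its highest library, Lef1 had 3 in its lowest and Wnt7a 4. Of the 42 members 34 were tested: 12 ligands, 9 receptors, both co-receptors, 5 antagonists, both targets and the 4 genes of the R-spondin axis.

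Between the hosts, the log2 difference of Balb/c from NSG was negative for 22 of the 34 tested members in wild-type and 26 in knockout tumors, beside 53.4% and 48.8% of all genes. Calls use edgeR's quasi-likelihood test with Benjamini-Hochberg adjustment over all 15310 genes tested and a threshold of 0.05. Between wild-type tumors of the hosts 11 of 34 members were called, 32.4%, beside 31.5% of all genes: 2 were higher in Balb/c (Fzd7 and Lef1) and 9 lower, beside 15.3% and 16.2% of all genes, the 9 being Wnt7b, Wnt9a, Wnt10b, Fzd1, Fzd2, Fzd6, Lrp5, Sfrp1 and Lgr5. Between knockout tumors 21 of 34 were called, 61.8%, beside 31.1% of all genes, with 2 higher (Wnt11 and Fzd7) and 19 lower, beside 15.7% and 15.4% of all genes. The median log2 difference between hosts was -0.34 over the members and -0.08 over all genes in wild-type tumors, and -1.10 and 0.02 in knockout tumors. The libraries of the hosts did not overlap for 9 members higher and 15 lower in Balb/c among wild-type tumors, beside 35.4% and 41.0% of all genes, and for 6 and 21 among knockout tumors, beside 32.4% and 31.9%. These shares describe genes picked with such values in view. The wild-type count was 2 without the NSG parental library, 4 without the NSG vCas9 library, 4 without the Balb/c parental library and 6 without the Balb/c vCas9 library, in fits that called between 5.45% and 9.44% of all genes. With the cell line as a block it was 7, beside 13.5% of all genes, the calls of Wnt10b, Fzd1, Fzd2 and Sfrp1 being lost. In knockout tumors the count was 17 to 21 without 1 library, in fits that called between 15.6% and 29.6% of all genes, and the block left 16, beside 18.8% of all genes, without Wnt16, Fzd1, Fzd7, Lrp6 and Lgr4.

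In neither host was a member called between knockout and wild-type tumors, beside 0.0131% of all genes in NSG and 0.176% in Balb/c. At an unadjusted p under 0.05 edgeR counted 11 of the 34 members in NSG, beside 14.0% of all genes, and 13 in Balb/c, beside 30.9%. DESeq2 called Fzd4 alone in NSG, beside 2.41% of all genes. In Balb/c it called 8 members, all lower in knockout tumors, beside 9.68% of all genes called lower: Wnt2, Wnt7b, Wnt9a, Wnt10b, Wnt16, Sfrp2, Sfrp4 and Lef1. Without the Balb/c clone 69 library edgeR called 8 in Balb/c, beside 24.8% of all genes. The medians were 0.62 over the members and 0.01 over all genes in NSG, and -0.29 and 0.06 in Balb/c. In NSG both knockout libraries were above both wild-type libraries for 19 of the 34 members and below them for 3, beside 26.7% and 25.9% of all genes. In Balb/c the counts were 4 above and 17 below, beside 32.9% and 29.3% of all genes.

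**Figure D1:**
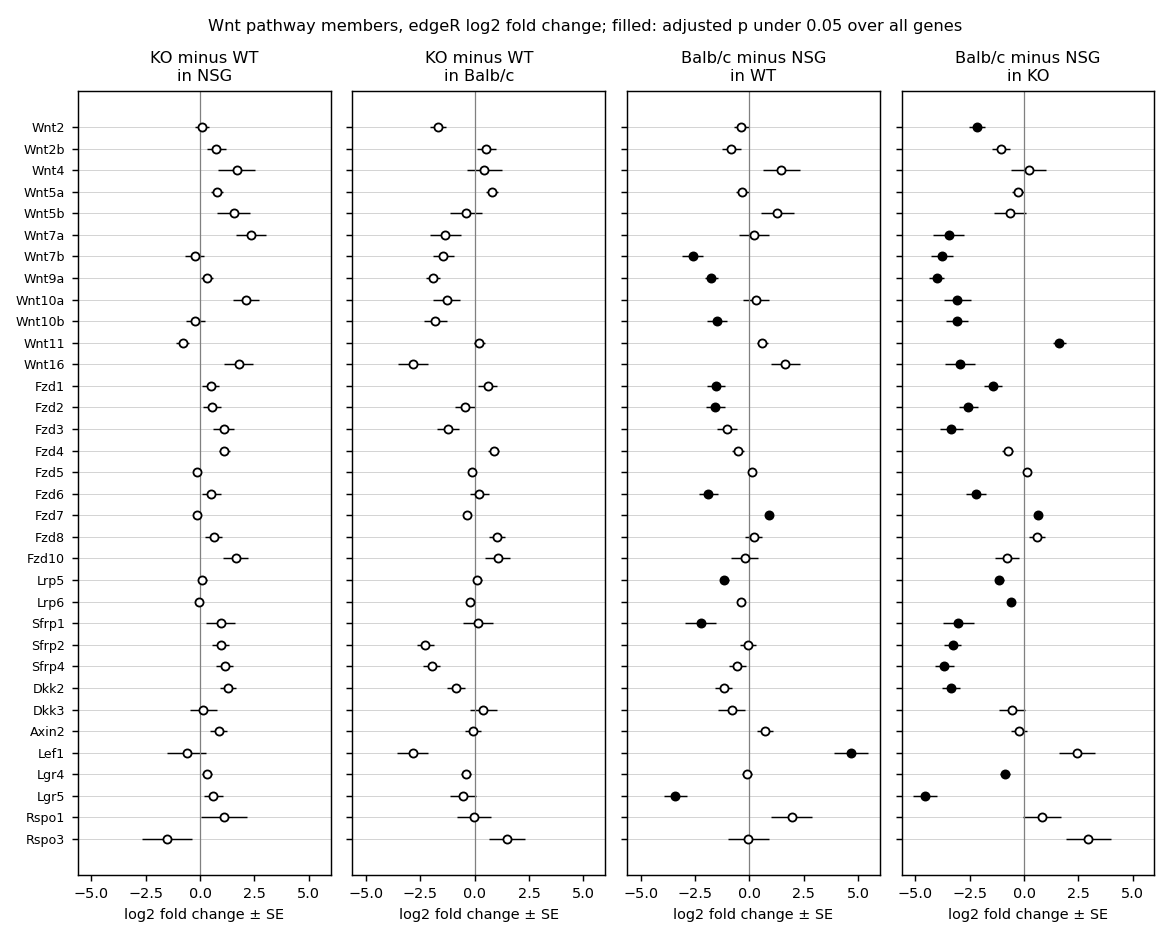
Log2 fold changes of the 34 tested members in the 4 comparisons, from edgeR, with bars of 1 standard error and filled points where the adjusted p over all genes was under 0.05. Filled points are absent from both knockout panels, 11 in the wild-type host panel and 21 in the knockout host panel, where Wnt9a lies at -4.02 and Lgr5 at -4.55.

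Among the ligands, the lead gene Wnt9a, a ligand known from joint and limb development and from blood stem cell formation, had 19.1 and 23.8 CPM in NSG wild-type tumors, 23.8 and 30.1 in NSG knockout tumors, 8.06 and 4.64 in Balb/c wild-type tumors, and 1.64 and 1.68 in Balb/c knockout tumors. The 4 NSG libraries were all above the 4 Balb/c libraries, and within Balb/c both clones were below both wild-type lines, with 31 and 23 counts in the clones. Within NSG the vCas9 line and clone 54 stood at the same rounded level. Its log2 difference between hosts was -1.76 (SE 0.30) in wild-type and -4.02 (SE 0.34) in knockout tumors, and that of knockout from wild type 0.33 (SE 0.28) in NSG and -1.93 (SE 0.33) in Balb/c. Leaving out each library in turn gave wild-type host differences between -2.21 and -1.34 and knockout ones between -4.18 and -3.84.

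Wnt7b, which acts through beta-catenin in lung and vessel development, had the highest CPM of the ligands in NSG tumors: 118 and 91.3 in wild-type and 67.7 and 108 in knockout tumors, against 13.5 and 20.8 in Balb/c wild-type and 3.28 and 9.62 in Balb/c knockout tumors. All Balb/c libraries were below all NSG libraries, by -2.61 (SE 0.47) on the log2 scale in wild-type and -3.79 (SE 0.51) in knockout tumors. Wnt10b, a canonical ligand that promotes mammary and bone growth, had 5.68 and 10.8 CPM in NSG wild-type, 6.63 and 7.35 in NSG knockout, 3.90 and 1.87 in Balb/c wild-type and 0.687 and 0.948 in Balb/c knockout tumors. Its 2 lowest libraries were again both Balb/c clones. Wnt2, a ligand often made by stromal cells, differed in where the step lay: 13.4 and 16.5 CPM in NSG wild-type, 16.8 and 15.0 in NSG knockout and 15.4 and 7.69 in Balb/c wild-type tumors overlapped, while Balb/c knockout tumors had 3.23 and 3.94. Its log2 difference of knockout from wild type was -1.69 (SE 0.35) in Balb/c and 0.09 (SE 0.33) in NSG.

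Another group of ligands was high in NSG knockout tumors, and for Wnt16 in Balb/c wild-type tumors too. Wnt7a, known for limb patterning and female reproductive tract development, had 10.9 and 5.47 CPM there, against 0.900 and 2.40 in NSG wild-type, 1.36 and 2.35 in Balb/c wild-type and 1.11 and 0.292 in Balb/c knockout tumors. Wnt10a, a ligand of skin appendages and teeth, had 10.7 and 4.77 CPM there, against 1.18 and 2.40, 3.06 and 1.39, and 1.06 and 0.729 in the same order. Wnt16, linked to bone and joint maintenance, had 6.42 and 3.28 CPM there, 0.623 and 2.24 in NSG wild-type, 5.94 and 3.05 in Balb/c wild-type and 0.529 and 0.729 in Balb/c knockout tumors. For these 3 ligands the knockout libraries lay above the wild-type libraries in NSG and below them in Balb/c. The log2 differences of knockout from wild type in NSG were 2.32 (SE 0.69) for Wnt7a, 2.12 (SE 0.59) for Wnt10a and 1.78 (SE 0.66) for Wnt16. In Balb/c they were -1.35 (SE 0.73), -1.28 (SE 0.62) and -2.83 (SE 0.70). Adipocyte markers (8 genes) had a median log2 difference of knockout from wild type of 1.0 in NSG. Of these 8, 5 were higher without overlap and none was called. In Balb/c their median was 0.43, with 3 higher and 1 lower without overlap and none called. The part of adipocyte content in the levels of these ligands was not tested.

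Wnt4 and Wnt5b varied between the libraries of a group as much as between groups. Wnt4, the ligand of progesterone-driven side branching in the mammary gland, had 3.05 and 4.72 CPM in NSG wild-type, 18.0 and 6.96 in NSG knockout, 5.43 and 15.9 in Balb/c wild-type and 4.71 and 24.4 in Balb/c knockout tumors. The summed epithelial markers had the same higher and lower library within each group, with 1200 and 1600 CPM, 3540 and 2350, 817 and 2130, and 758 and 4320. All 8 epithelial markers were higher in both NSG clones than in both NSG wild-type lines without overlap, with a median log2 difference of 1.36, and none was called. In Balb/c all 8 also had a positive log2 difference of knockout from wild type, with a median of 0.62. There 1 was higher without overlap, 7 overlapped and none was called. Wnt7a, Wnt10a, Wnt16 and Wnt5b were, like the epithelial sum, higher in clone 54 than in clone 69 in NSG. In Balb/c, where clone 69 had the higher epithelial sum, Wnt7a and Wnt10a were lower in clone 69, and Wnt5b was higher there. Wnt7a had only 4 counts in that library. Wnt16 had 10 counts in each Balb/c clone, so its CPM differed there only through library scaling. The part of epithelial content in the levels of these 5 ligands was not tested. Wnt5b had 1.04 and 1.82 CPM in NSG wild-type, 6.42 and 1.89 in NSG knockout, 3.23 and 3.74 in Balb/c wild-type and 1.11 and 4.23 in Balb/c knockout tumors, so that clone 54 was the highest library in NSG and clone 69 the highest in Balb/c.

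Wnt11 and Wnt5a, ligands that signal largely without beta-catenin, differed from each other in their order over the groups. Wnt11 had 11.4 and 18.3 CPM in NSG wild-type, 7.06 and 9.84 in NSG knockout, 22.1 and 23.0 in Balb/c wild-type and 25.1 and 27.2 in Balb/c knockout tumors. It was the only tested ligand whose libraries were lower in knockout tumors in NSG without overlap, and the only ligand called higher in Balb/c, at 1.63 (SE 0.28) in knockout tumors. Wnt5a had 8.86 and 12.7 CPM in NSG wild-type, 17.1 and 19.6 in NSG knockout, 8.06 and 9.14 in Balb/c wild-type and 12.1 and 18.1 in Balb/c knockout tumors. Both clones thus exceeded both wild-type lines in both hosts, by 0.77 (SE 0.28) in NSG and 0.81 (SE 0.28) in Balb/c on the log2 scale. Wnt2b was between 1.82 and 6.96 CPM in all libraries, highest in the NSG clones at 5.24 and 6.96.

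**Figure D2:**
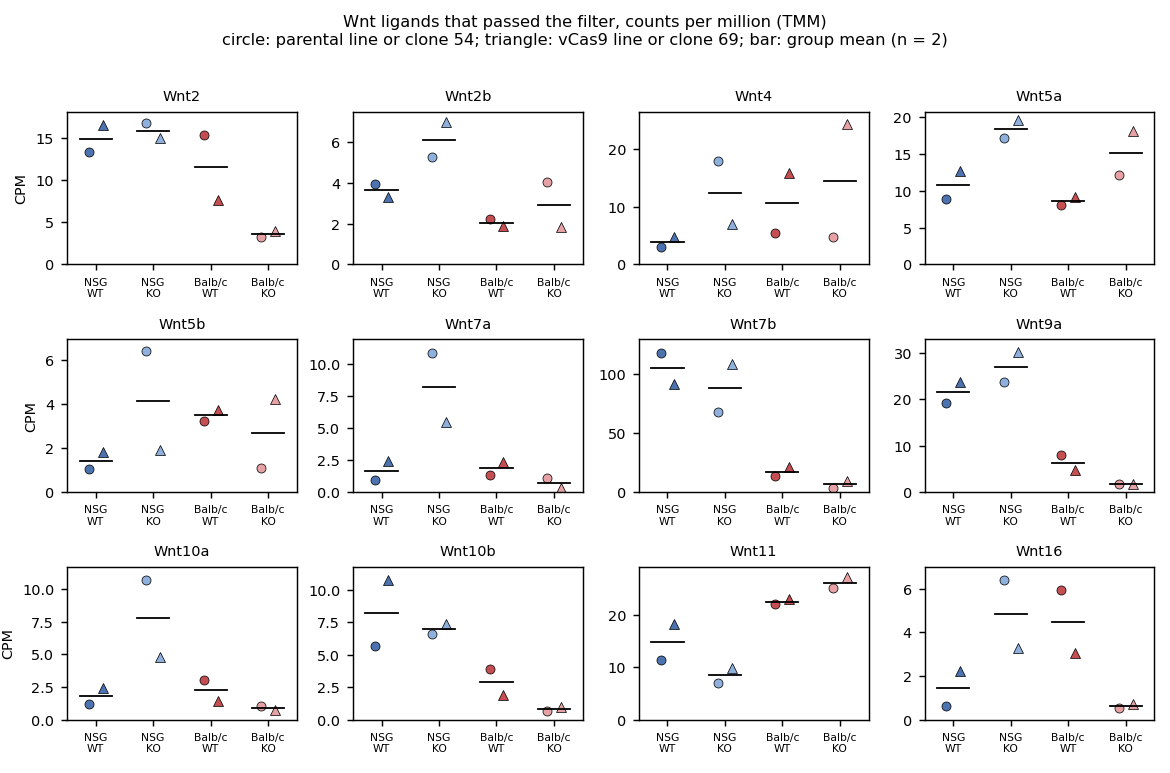
Levels of the 12 tested Wnt ligands in CPM on linear axes from 0, 1 panel per ligand, with circles for the parental line or clone 54, triangles for the vCas9 line or clone 69 and bars at the mean of 2 libraries. Wnt7b and Wnt9a are high in all 4 NSG libraries, Wnt7a and Wnt10a are high in both NSG knockout libraries, and Wnt11 is highest in Balb/c.

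Per length, as RPKM, the CPM divided by the exon length in kilobases, the leading ligand changed between hosts. Wnt7b led in NSG, with 21.4 ± 3.83 RPKM (SD, n = 2) and 46.5% of the summed ligand level in wild-type and 17.9 ± 5.77 RPKM and 33.9% in knockout tumors. Wnt9a was behind Wnt7b and Wnt2 in NSG wild-type tumors at 6.44 ± 0.989 RPKM, within its spread of Wnt2 at 6.61, and next to Wnt7b in NSG knockout tumors at 8.10 ± 1.33 RPKM. There too Wnt2, at 7.05 RPKM, lay within the spread of Wnt9a, and in NSG clone 54 Wnt2 (7.44) was above Wnt9a (7.16). In Balb/c Wnt11 was first, with 5.45 RPKM and 21.8% in wild-type and 6.31 RPKM and 35.0% in knockout tumors, and Wnt9a had rank 5 and rank 8. Wnt11 and Wnt2, at 5.13 RPKM, were close to each other in Balb/c wild-type tumors. Summed over the 18 ligands the level was 44.4 and 47.4 RPKM in NSG wild-type, 52.1 and 53.5 in NSG knockout, 25.8 and 24.3 in Balb/c wild-type and 14.1 and 22.0 in Balb/c knockout tumors, so the 4 NSG libraries were above the 4 Balb/c libraries.

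Of the receptors, Fzd7 was the only Frizzled called higher in Balb/c, and it is a receptor tied to stemness and to basal breast cancer. It had 30.1 and 32.5 CPM in NSG wild-type, 27.8 and 29.1 in NSG knockout, 54.7 and 60.5 in Balb/c wild-type and 40.1 and 48.3 in Balb/c knockout tumors. The libraries were thus lower in knockout than in wild-type tumors in both hosts, by log2 values of -0.14 (SE 0.16) and -0.38 (SE 0.16). Its host difference was 0.88 (SE 0.16) in wild-type and 0.63 (SE 0.16) in knockout tumors, the latter no longer called with total-count scaling. Fzd5 was nearly level, at 27.9 and 27.3, 24.4 and 25.0, 29.2 and 29.8, and 26.6 and 27.3 CPM in the same order of groups.

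Of the 9 tested Frizzled genes 3 were called lower in Balb/c in wild-type tumors and 4 in knockout tumors, beside 16.2% and 15.4% of all genes. These were Fzd1, Fzd2 and Fzd6 in both genotypes, and Fzd3 in knockout tumors. Fzd6, a receptor of planar cell polarity, had 41.5 and 36.5 CPM in NSG wild-type, 49.1 and 62.7 in NSG knockout, 9.68 and 11.4 in Balb/c wild-type and 6.08 and 18.3 in Balb/c knockout tumors, with no overlap between hosts. Fzd2, a Wnt5a receptor, had 13.4 and 14.1 CPM, 17.1 and 23.2, 4.24 and 4.99, and 5.02 and 1.68. Fzd3, which guides axons, had 9.0 and 10.8 CPM, 20.3 and 21.6, 3.73 and 5.89, and 0.952 and 3.28, so the clones were above the wild-type lines in NSG and below them in Balb/c. The log2 host difference in knockout tumors was -2.21 (SE 0.44) for Fzd6, -2.56 (SE 0.45) for Fzd2 and -3.34 (SE 0.52) for Fzd3. Fzd1 had 33.8 and 50.7 CPM, 46.0 and 71.7, 14.3 and 14.8, and 31.0 and 12.8, where clone 54 in Balb/c came close to the NSG parental library.

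Fzd4 and Fzd8 were higher in the clones of both hosts without overlap, and edgeR called neither. For 5 of 34 members the libraries lay in the same direction in both hosts without overlap, beside 16.6% of all genes. Fzd4, the Norrin receptor of blood vessels, had 13.3 and 22.6 CPM in NSG wild-type, 37.0 and 40.4 in NSG knockout, 12.3 and 12.7 in Balb/c wild-type and 21.3 and 24.5 in Balb/c knockout tumors. The log2 difference of knockout from wild type was 1.11 (SE 0.26) in NSG and 0.87 (SE 0.26) in Balb/c. Endothelial markers (8 genes) summed to 234 and 415 CPM, 300 and 495, 186 and 271, and 543 and 483 in the same groups, overlapping in NSG and higher in both clones in Balb/c. In NSG 7 of the 8 had a positive log2 difference of knockout from wild type, with a median of 0.50 and none called, and 2 of the 8, Tek and Cldn5, did not overlap. Tek had 13.4 and 21.5 CPM in wild-type and 36.7 and 38.0 in knockout tumors. In Balb/c all 8 were higher in both clones without overlap, with a median of 1.60 and none called. The part of endothelial content in the Fzd4 levels was not tested. Fzd8 had 2.42 and 3.56 CPM, 5.13 and 4.07, 2.46 and 4.29, and 7.03 and 6.78. Fzd10 was between 0.849 and 3.74 CPM, with 3.74 and 2.88 in the NSG clones and 2.92 in Balb/c clone 69.

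Of the co-receptors, Lrp5 had 104 and 88.8 CPM in NSG wild-type, 95.8 and 110 in NSG knockout, 37.0 and 49.2 in Balb/c wild-type and 41.0 and 52.8 in Balb/c knockout tumors. All Balb/c libraries were below all NSG libraries, with log2 values of -1.16 (SE 0.21) and -1.14 (SE 0.21) in wild-type and knockout tumors. The log2 difference of knockout from wild type was 0.10 (SE 0.21) in NSG and 0.12 (SE 0.21) in Balb/c. Lrp6 had 162 and 160 CPM, 147 and 169, 124 and 120, and 105 and 106. By RPKM, Fzd1 led the Frizzled genes in NSG with 27.1% of their sum in wild-type and 27.9% in knockout tumors, and Fzd7 led in Balb/c with 47.1% and 35.2%. In NSG wild-type tumors Fzd1, at 10.1 ± 2.85 RPKM, and Fzd6, at 8.1 ± 0.737 RPKM (SD, n = 2), lay within their spread, and in the NSG parental library Fzd6 (8.62) was above Fzd1 (8.06).

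**Figure D3:**
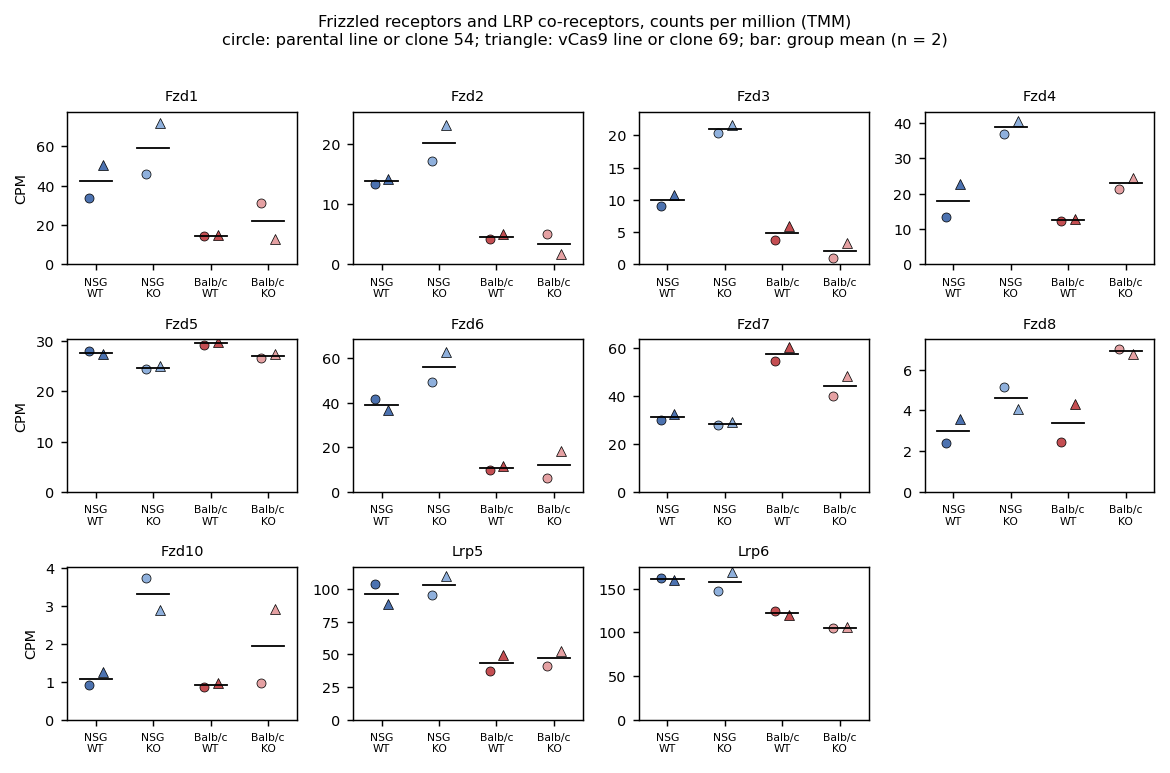
Levels of the 9 tested Frizzled receptors and of Lrp5 and Lrp6 in CPM on linear axes from 0, with circles for the parental line or clone 54, triangles for the vCas9 line or clone 69 and bars at the mean of 2 libraries. Fzd7 is higher in the Balb/c libraries, Fzd6 and Lrp5 are lower there, and Fzd5 stays between 24.4 and 29.8 CPM.

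The antagonists had a median log2 host difference of -3.29 in knockout tumors over the 5 tested, against -2.54 over the 12 ligands and -0.79 over the 9 receptors. In wild-type tumors these medians were -0.82, -0.06 and -0.52. Sfrp2, a secreted Frizzled-related protein typical of fibroblasts, had 42.0 and 102 CPM in NSG wild-type, 146 and 130 in NSG knockout, 75.7 and 60.5 in Balb/c wild-type and 16.3 and 11.7 in Balb/c knockout tumors. Sfrp4, of the same family, had 52.9 and 98.8 CPM, 214 and 119, 64.8 and 39.0, and 13.2 and 12.9. For both genes the wild-type tumors of the hosts overlapped, the NSG clones were the highest libraries and the Balb/c clones the lowest. The log2 difference of knockout from wild type was 0.94 (SE 0.38) and 1.13 (SE 0.39) in NSG, and -2.27 (SE 0.40) and -1.99 (SE 0.41) in Balb/c, for Sfrp2 and Sfrp4 in turn.

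Sfrp1 separated the hosts in both genotypes, with 49.4 and 127 CPM in NSG wild-type, 161 and 178 in NSG knockout, 18.8 and 18.4 in Balb/c wild-type and 34.8 and 6.56 in Balb/c knockout tumors. Its wild-type call was lost with size factors of the DESeq2 kind, and in 6 of the 8 fits without 1 library, where the log2 value lay between -2.77 and -1.42. Dkk2, a Dickkopf protein that binds LRP6, had 3.88 and 5.88 CPM, 13.4 and 10.5, 2.46 and 1.80, and 1.48 and 0.802, so both NSG clones were again the highest and both Balb/c clones the lowest. Dkk3, a divergent Dickkopf protein, had 12.4 and 20.0 CPM, 17.7 and 18.1, 9.68 and 8.73, and 20.1 and 3.94, with the clones far apart in Balb/c. Fibroblast markers (10 genes) summed to 18300 and 26800 CPM in NSG wild-type, 35000 and 30600 in NSG knockout, 13600 and 9350 in Balb/c wild-type and 12400 and 4410 in Balb/c knockout tumors. The clone with fewer fibroblast marker counts in Balb/c, clone 69, also had less Sfrp1, Dkk2 and Dkk3, and 8 of the 10 markers were called lower in Balb/c knockout than in NSG knockout tumors, beside 1 of 10 in wild-type tumors. In NSG all 10 had a positive log2 difference of knockout from wild type, 9 without overlap, with a median of 0.58 and none called. In Balb/c the median was -0.24, with 2 lower without overlap. Of the 8 adipocyte markers 5 were called lower and 1 higher in Balb/c than in NSG knockout tumors (median -2.96), and 3 lower in wild-type tumors (median -2.04). The part of fibroblast and adipocyte content in the antagonist levels was not tested. In the Balb/c clone 54 library Sfrp2 and Sfrp4 were below both Balb/c wild-type libraries, and its fibroblast sum lay between theirs.

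**Figure D4:**
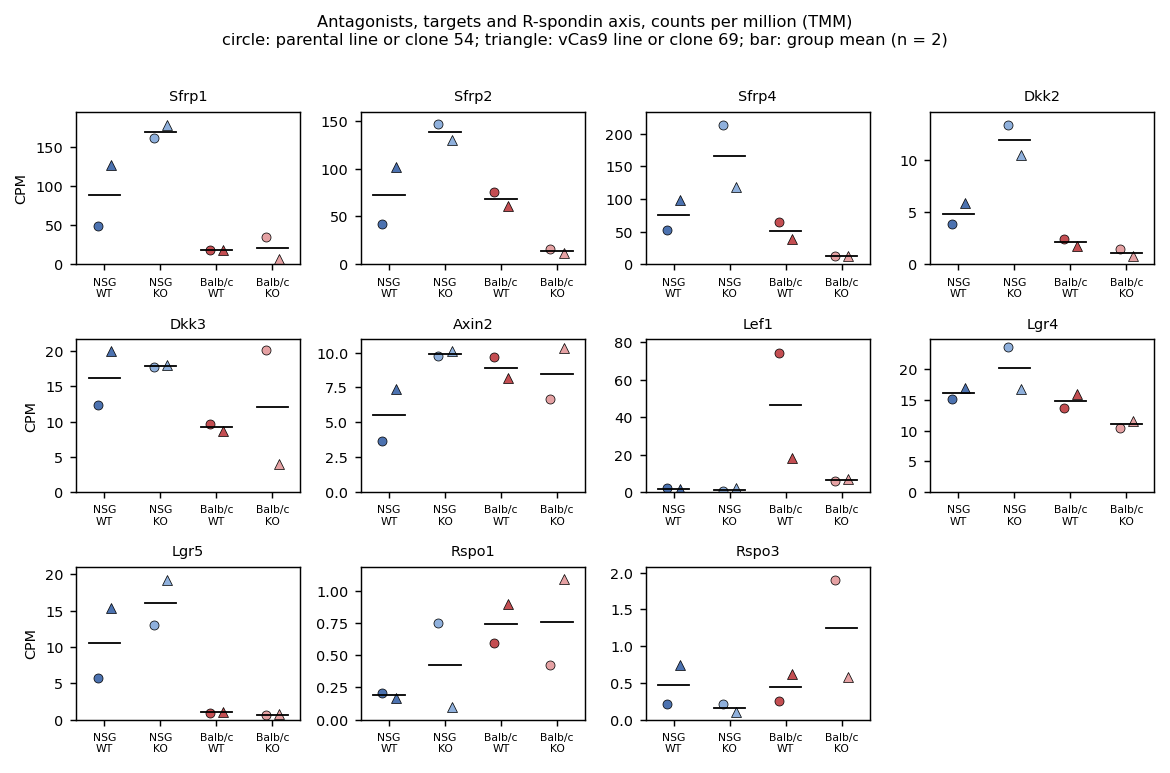
Levels of the 5 tested antagonists, of Axin2 and Lef1 and of 4 R-spondin axis genes in CPM on linear axes from 0, with circles for the parental line or clone 54, triangles for the vCas9 line or clone 69 and bars at the mean of 2 libraries. Sfrp2, Sfrp4 and Dkk2 are highest in the NSG knockout libraries and lowest in the Balb/c knockout libraries, and Lef1 is highest in the Balb/c parental library at 74.4 CPM.

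In the R-spondin axis, Lgr5, a receptor that marks stem cells of gut, skin and mammary gland, had 5.74 and 15.4 CPM in NSG wild-type, 13.0 and 19.2 in NSG knockout, 0.934 and 1.04 in Balb/c wild-type and 0.634 and 0.729 in Balb/c knockout tumors. The hosts did not overlap, at log2 values of -3.40 (SE 0.53) in wild-type and -4.55 (SE 0.55) in knockout tumors, while knockout differed from wild type by 0.61 (SE 0.44) in NSG and -0.54 (SE 0.59) in Balb/c. The size of the wild-type host difference depends on the NSG vCas9 library, since the NSG mean of 10.6 CPM had an SD of 6.83. The related Lgr4 had 15.2 and 16.9 CPM, 23.6 and 16.8, 13.7 and 15.9, and 10.5 and 11.6 in the same groups. Rspo1 and Rspo3, the ligands of these receptors, did not exceed 1.90 CPM in any library. Summed proliferation markers (7 genes) also separated the hosts, at 847 and 767, 579 and 981, 392 and 383, and 371 and 243 CPM, and their relation to Lgr5 was not tested.

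The target genes parted. Axin2, the negative regulator of the pathway that is widely used as a readout of beta-catenin activity, had 3.67 and 7.37 CPM in NSG wild-type, 9.73 and 10.1 in NSG knockout, 9.68 and 8.17 in Balb/c wild-type and 6.66 and 10.3 in Balb/c knockout tumors. Its log2 differences were 0.70 (SE 0.37) and -0.23 (SE 0.37) between hosts, and 0.85 (SE 0.38) and -0.08 (SE 0.37) between knockout and wild type in NSG and Balb/c in turn. Over both genotypes the ranges of Axin2 overlapped between the hosts, while those of the summed ligands did not. In wild-type tumors alone Axin2 was higher in both Balb/c libraries without a call, the reverse of the summed ligands. Lef1, a transcription factor of the pathway that lymphocytes also express, had 2.01 and 1.57 CPM in NSG wild-type, 0.321 and 1.99 in NSG knockout, 74.4 and 18.2 in Balb/c wild-type and 5.92 and 6.85 in Balb/c knockout tumors. Its log2 difference between hosts was 4.68 (SE 0.79) in wild-type and 2.43 (SE 0.83) in knockout tumors, and that of knockout from wild type -2.86 (SE 0.70) in Balb/c and -0.61 (SE 0.90) in NSG. The sizes of the 4.68 and the -2.86 depend on the Balb/c parental library. The Balb/c wild-type mean of 46.3 CPM had an SD of 39.8.

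The Lef1 values were read beside the lymphocyte markers. B cell markers (6 genes) summed to 1.18 and 1.41 CPM in NSG wild-type, 1.5 and 1.29 in NSG knockout, 177 and 36.8 in Balb/c wild-type and 7.67 and 11.7 in Balb/c knockout tumors, which is the order of Lef1 over the 4 Balb/c libraries. The T cell sum was 380 and 326 CPM in Balb/c wild-type and 368 and 363 in Balb/c knockout tumors, without that order. Single markers did not all follow their sum. The T cell marker Cd3e had the order of Lef1, with 65.9 and 51.4 CPM in Balb/c wild-type and 26.0 and 37.5 in Balb/c knockout tumors. The B cell marker Cd79b did not, with 14.0 and 2.08 CPM and 2.64 and 1.9. All 6 B cell markers and all 8 T cell markers were called higher in Balb/c than in NSG wild-type tumors, and 2 and 8 in knockout tumors. The part of lymphocytes in the Lef1 levels was not tested.

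**Figure D5:**
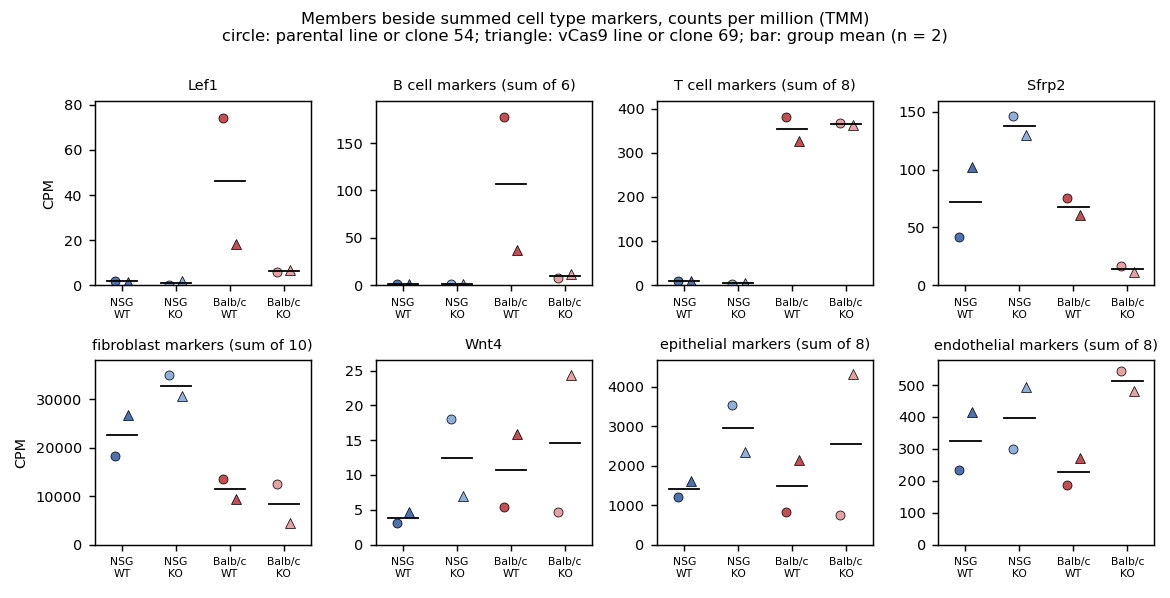
Lef1, Sfrp2 and Wnt4 beside the summed CPM of 5 marker lists, on linear axes from 0, with circles for the parental line or clone 54, triangles for the vCas9 line or clone 69 and bars at the mean of 2 libraries. T cell markers lie at 10.4 CPM or less in NSG and at 326 CPM or more in Balb/c, B cell markers and Lef1 are both highest in the Balb/c parental library, and Wnt4 and the epithelial markers are both highest in the Balb/c clone 69 library.

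The effect of the knockout was compared between hosts in the same fit. No member was called, beside 0.0% of all genes, with 12 members at an unadjusted p under 0.05, beside 22.5% of all genes. DESeq2 called 9, all in the direction of a lower knockout effect in Balb/c, beside 4.0% of all genes called in that direction. Without the Balb/c clone 69 library edgeR called 7, beside 15.1% of all genes. The median of the difference, Balb/c minus NSG, was -0.96 over the members and 0.03 over all genes. For 9 of 34 members the libraries did not overlap in either host and lay in opposite directions, beside 16.3% of all genes: Wnt7a, Wnt9a, Wnt10a, Wnt16, Fzd3, Sfrp2, Sfrp4 and Dkk2 were higher in the NSG clones and lower in the Balb/c clones, and Wnt11 the reverse. Macrophage markers (8 genes) were also split by host: all 8 were lower in both NSG clones and higher in both Balb/c clones than in the wild-type lines, without overlap, and none was called. Their sums were 3040 and 3060 CPM in NSG wild-type, 1610 and 2060 in NSG knockout, 2030 and 2370 in Balb/c wild-type and 9800 and 4090 in Balb/c knockout tumors, and their median difference of the knockout effect was 2.10. Neutrophil markers (7 genes) summed to 1320 and 1660 CPM, 3070 and 1460, 7230 and 5510, and 408 and 2090 in the same order, with all 7 lower in both Balb/c clones, none called, and a median difference of -3.03. The part of macrophage and neutrophil content in the levels of these 9 members was not tested.

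Another 66 genes of the pathway were listed for context, 56 of which were tested. In wild-type tumors 21 of the 56 passed edgeR's test between hosts, 6 higher and 15 lower in Balb/c, and in knockout tumors 33, 5 higher and 28 lower, 37.5% and 58.9% beside 31.5% and 31.1% of all genes. By role, 5 of the 8 other receptors and receptor regulators fell in wild-type tumors and 7 of 8 in knockout tumors. Of the 11 nuclear genes, TCF factors and cofactors, 3 rose and 2 fell in wild-type tumors, and 3 rose and 7 fell in knockout tumors. Of the 15 cytoplasmic components 2 rose and 2 fell, and then 1 rose and 4 fell. Of the 8 tested target genes 2 fell in wild-type and 5 in knockout tumors. Beside these counts by role, 15.3% of all genes were called higher and 16.2% lower in wild-type tumors, and 15.7% and 15.4% in knockout tumors. The wild-type count was 5 without the NSG parental library, 8 without the NSG vCas9 library, 8 without the Balb/c parental library and 7 without the Balb/c vCas9 library, and 13 with the cell line as a block, beside the shares of all genes given above for these fits. The knockout count was 21 without NSG clone 54, beside 20.9% of all genes, 17 without NSG clone 69, beside 15.6%, and 20 with the block, beside 18.8%.

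RNA of Ctnnb1, the beta-catenin gene, was higher in Balb/c. Beta-catenin protein was not measured, and the part of cell content in the Ctnnb1 levels was not tested. Ctnnb1 had 469 and 420 CPM in NSG wild-type, 406 and 412 in NSG knockout, 898 and 1000 in Balb/c wild-type and 643 and 806 in Balb/c knockout tumors. Its log2 difference between hosts was 1.10 (SE 0.21) in wild-type and 0.82 (SE 0.20) in knockout tumors. Ctnnb1 and Ccnd1 were picked after their values were seen, so both are described without p-values. Leaving out each library in turn gave Ctnnb1 differences between 1.0 and 1.19 in wild-type and between 0.66 and 0.95 in knockout tumors. Ccnd1, the cyclin D1 gene and a target in several cell types, had 235 and 188 CPM, 170 and 215, 54.5 and 66.9, and 40.1 and 47.3. It was lower in Balb/c by 1.80 on the log2 scale (SE 0.21) in wild-type and by 2.14 (SE 0.21) in knockout tumors. The proliferation markers were called lower in 6 of 7 cases in wild-type and 7 of 7 in knockout tumors, and their part in the Ccnd1 level was not tested.

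Among the nuclear genes Tcf7, the TCF1 factor of T cells, had 4.5 and 4.72 CPM in NSG wild-type, 2.67 and 3.78 in NSG knockout, 62.1 and 18.1 in Balb/c wild-type and 11.7 and 13.0 in Balb/c knockout tumors. Like Lef1 it was highest in the Balb/c parental library, and its order over the 4 Balb/c libraries was that of the B cell marker sum. The T cell marker Cd3e had the same order, and the T cell sum did not. The part of lymphocytes in the Tcf7 levels was not tested. It rose by 3.12 (SE 0.54; edgeR adjusted p = 0.00677) in wild-type tumors and by 1.93 (SE 0.55; edgeR adjusted p = 0.0312) in knockout tumors on the log2 scale, with every Balb/c library above every NSG library. The wild-type call was lost without either NSG wild-type library (between 1.96 and 3.82 over the 8 fits), and the knockout call without any 1 of the 4 knockout libraries or of the NSG wild-type libraries (between 1.70 and 2.20). The corepressors Tle4 and Tle2 moved in opposite directions in both genotypes, Tle4 by 1.19 (SE 0.17; edgeR adjusted p = 0.00376) and 1.56 (SE 0.17; edgeR adjusted p = 0.000875), Tle2 by -1.99 (SE 0.26; edgeR adjusted p = 0.00262) and -2.76 (SE 0.26; edgeR adjusted p = 0.00053). These 4 calls held in all 8 fits without 1 library.

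Among secreted and surface genes Notum, the enzyme that removes the lipid from Wnt ligands, had 1.94 and 4.88 CPM in NSG wild-type, 4.92 and 3.18 in NSG knockout, 0.679 and 0.139 in Balb/c wild-type and 0.0529 and 0.219 in Balb/c knockout tumors, the last from 1 and 3 counts. Its log2 difference was -3.08 (SE 0.80; edgeR adjusted p = 0.0249) in wild-type tumors, not past the threshold with the block or without any 1 of the 4 wild-type libraries (between -4.53 and -2.24), and -4.91 (SE 0.91; edgeR adjusted p = 0.00624) in knockout tumors. Lgr6, the third LGR receptor, had 47.1 and 27.7 CPM, 26.1 and 45.0, 7.55 and 9.49, and 1.43 and 4.59, and fell by 2.13 (SE 0.51; edgeR adjusted p = 0.0189) and 3.60 (SE 0.55; edgeR adjusted p = 0.00289) on the log2 scale. Its wild-type call was lost without any 1 of the 4 wild-type libraries (between -2.48 and -1.70), and the knockout call held in all 8 fits. Ptk7, a co-receptor of planar polarity, fell by 2.04 (SE 0.29; edgeR adjusted p = 0.00355) and 1.65 (SE 0.28; edgeR adjusted p = 0.00436). Celsr3, a cadherin of the same pathway, rose by 1.58 (SE 0.33; edgeR adjusted p = 0.012) in wild-type tumors, lost without any 1 of the wild-type libraries (between 1.54 and 1.67), and by 1.33 (SE 0.34; edgeR adjusted p = 0.0209) in knockout tumors, lost without NSG clone 54 or Balb/c clone 69 (between 0.92 and 1.63).

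Between knockout and wild-type tumors none of the 56 genes passed edgeR's test, with smallest adjusted p-values of 0.205 in NSG and 0.0569 in Balb/c, and 8 and 19 genes at an unadjusted p under 0.05, beside 14.0% and 30.9% of all genes. DESeq2 called 2 in NSG and 9 in Balb/c, beside 2.41% and 15.0% of all genes. The median log2 difference of these genes was 0.08 in NSG, beside 0.01 over all genes, and -0.29 in Balb/c, beside 0.06. Both clones were above both wild-type lines for 20 of the 56 and below them for 14 in NSG, beside 26.7% and 25.9% of all genes, and above them for 8 and below them for 29 in Balb/c, beside 32.9% and 29.3%. Without the Balb/c clone 69 library edgeR called 10, beside 24.8% of all genes, and without the Balb/c vCas9 library 1, beside 0.153%. For the difference between the hosts the smallest adjusted p was 0.0877 and 14 genes had an unadjusted p under 0.05, beside 22.5% of all genes. DESeq2 called 3, beside 6.9% of all genes, and 9 were called without Balb/c clone 69, beside 15.1%.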

How the data were processed

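RNA of 8 tumors or tumor pools was sequenced, and the authors deposited raw counts per Ensembl gene, 1 library per file. The submitters' processing notes name cutadapt 1.13, STAR, HTSeq 0.6.1p1 and DESeq2, and the builds mm10 and hg19 without a role for each; the strand setting, annotation and filters are not given in the sources used here. Without the strand setting, antisense and overlapping genes are uncertain. Symbols were matched for 24942 of 25006 identifiers; positions and exon lengths came from GENCODE M21 (GRCm38) and promoters from RefSeq.

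Counts were scaled by TMM, filtered with filterByExpr (15310 genes kept) and fitted with edgeR 4.0.16 (quasi-likelihood test, R 4.3.3) as 4 group means over all 8 libraries, with Benjamini-Hochberg adjustment over all genes and a threshold of 0.05. DESeq2 1.42.0 was an alternative, beside other scalings, no filter, only the compared libraries, the cell line as a block and leaving out each library, where a lone library is assumed to vary like the others. The p-values rest on the spread between the libraries of a group, with 4 residual degrees of freedom. No line was sequenced repeatedly within a host. This spread therefore mixes differences between lines, between tumors or pools and between libraries, which cannot be told apart. On simulated data with 200 genes changed 4-fold, the fit recovered 59.5% in the NSG and 71% in the Balb/c knockout comparison, and 66% and 75% in the wild-type and knockout host comparisons. The false share of calls was 4.03% and 6.58%, and 3.65% and 5.06%, in turn. The simulation used the fitted dispersions and left all other genes unchanged. In the tumors 31.5% and 31.1% of all genes were called between hosts, so these shares need not hold there.

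Cell lines pair the hosts by design, from the sample titles. Across genes the deviations within a pair correlated between hosts at 0.07 for the parental and vCas9 lines and at -0.4 for the clones. Members and lists were chosen with earlier results of these data known. The members with values in the text are all those tested; of the other pathway genes, the 3 with the largest change per direction among those called in each host comparison are named and given in both, and Ctnnb1 and Ccnd1 were added after their values were seen.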

Additional observations from a re-analysis of the deposited data

Results flagged for a closer look

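For 9 members the knockout libraries lay on opposite sides of the wild-type libraries in the 2 hosts, without overlap in either. The difference of the knockout effect, Balb/c minus NSG on the log2 scale, was -4.60 for Wnt16, -3.67 for Wnt7a, -3.39 for Wnt10a, -3.21 for Sfrp2, -3.12 for Sfrp4, -2.31 for Fzd3, -2.26 for Wnt9a, -2.16 for Dkk2 and 1.02 for Wnt11. The difference was fitted across all genes with edgeR and no gene of the 15310 passed the adjusted threshold. Such a pattern of libraries was present in 16.3% of all genes tested. The libraries of all 8 macrophage markers also lay in opposite directions in the hosts, lower in the NSG clones and higher in the Balb/c clones, and their part in these differences was not tested. For Wnt9a the NSG wild-type and knockout libraries nearest to each other had the same rounded level.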

How the results depend on the processing

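Counts of calls depended on tool, filter and library: of 1749 values of 25 genes under an alternative, 1631 stayed on their side of the threshold, 53 lost the call and 65 gained one. No value called in either fit changed sign, and 44 values called in neither did, in 23 of 125 comparisons of a gene. For CD95 knockout in NSG, DESeq2 called 1 member and 2 other pathway genes (2.41% of all genes; 0 without each library). In Balb/c, members called were 1 with RLE size factors (0.614% of all genes), 8 with no filter (8.52%) and 8 with DESeq2 (15.0%), and 0 to 8 without 1 library (0% to 24.8%), and other pathway genes 8 and 9 with no filter and DESeq2 (0 to 10). For the difference of the knockout effect, no filter gave 8 members and 1 other gene (3.24% of all genes), DESeq2 9 and 3 (6.9%), and leaving out 1 library 0 to 7 and 0 to 9 (0% to 15.1%). Between hosts in wild-type tumors the replicate block by cell line left 7 members and 13 other genes (13.5% of all genes), and leaving out 1 library gave 2 to 15 and 5 to 28 (5.45% to 40.5%). In knockout tumors the block left 20 other genes (18.8%), the 4 compared libraries alone 18 (16.8%), and leaving out 1 library gave 17 to 21 members and 17 to 28 other genes (15.6% to 29.6%). Since the clones correlated negatively, a crossed clone pairing as replicate block, chosen after seeing the data, was fitted: it called 12 and 26 in wild-type (37.4% of all genes), 25 and 35 in knockout tumors (35.5%) and 1 and 1 for the difference (2.01%). Among the members, the block by cell line changed no call other than those named beside the results. The cause of these changes was not tested. Total-count scaling moved the median of all genes from -0.08 to -0.24 in the wild-type and from 0.02 to -0.17 in the knockout host comparison, and the share of calls that were higher from 48.6% to 36.5% (57.9% with RLE) and from 50.5% to 37.3%; in the Balb/c knockout comparison it was 25.9%, and 16% with RLE. A scaling changed the sign of Lrp6 in the NSG knockout comparison, Rspo1 in the Balb/c one, Fzd5, Sfrp2 and Rspo3 between wild-type hosts, Fzd5 between knockout hosts, and Wnt5a, Fzd5 and Lrp5 in the difference. Depth limits the members under 3 counts in at least 1 library, including Rspo1 and Rspo3, whose plotted levels rest on few counts.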
